A study of Mus musculus with 12 samples.

Results

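The homeostatic and lymphoid chemokines described here are 10 genes: the ligands Ccl19, Ccl20, Ccl21a, Ccl25, Ccl28, Cxcl12 and Cxcl13 and the receptors Ccr7, Cxcr4 and Cxcr5. They were taken by gene symbol from a table of 54532 genes of mouse colon. The 10 symbols gave 12 rows, because Ccl19 and Ccl21a each occur once on chromosome 4 and once on the unplaced scaffold JH584294.1. A filter on low values, an FPKM of 0.1 reached in 3 or more libraries, was passed by 10 of these rows. Ccl19 on chromosome 4 did not pass it, and Ccl19 on the scaffold held 0 counts in every library.

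The study asked how deletion of Tmem173, the gene of the DNA-sensing adaptor STING, in myeloid cells changes colitis. PolyA RNA of colon was sequenced in 12 libraries, 3 for each of the 4 groups. Floxed Tmem173 and no Cre is the genotype of Tmem173fl/fl mice, and Tmem173iΔmye mice (Tmem173fl/fl with Lyz2-Creert2) carry in addition a tamoxifen-inducible Cre in Lyz2, which is expressed in macrophages, monocytes and neutrophils and not in most colon cells. All 4 groups, controls included, received 5 tamoxifen injections, and the methods give an age of 6 to 8 weeks and a C57BL/6N background. The untreated groups drank water. The colitic groups drank 2.5 to 3% DSS (dextran sulfate sodium, a polymer that damages colon epithelium) for 7 days and then water for 1 day. The labels do not say whether each library came from a separate mouse, so the p-values measure the spread between these libraries.

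Chemokines are small secreted proteins that attract cells carrying the matching receptor. The homeostatic group places lymphocytes and dendritic cells in resting tissue: CCL19 and CCL21 bind CCR7 and guide T cells and dendritic cells towards lymphatic vessels and T cell zones, CXCL13 binds CXCR5 and draws B cells into follicles, and CXCL12 binds CXCR4 and retains many leukocytes and progenitors. In the gut, CCL20 from the epithelium over lymphoid follicles binds CCR6, CCL25 from small intestinal epithelium binds CCR9, and CCL28 from colon epithelium binds CCR10 and CCR3 and attracts cells that secrete IgA.

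Library totals ran from 13823237 to 18718915 counts. Tmem173 itself was at 20.6 ± 5.46 CPM (read counts relative to library depth after TMM scaling, mean ± SD, n = 3) in untreated Tmem173fl/fl and 17.7 ± 3.40 in untreated Tmem173iΔmye libraries, and at 41.4 ± 3.30 and 34.2 ± 12.3 in the colitic groups. It was not called between the genotypes, so that a loss of the targeted gene was not detectable in these libraries of whole colon. By qPCR the study reports less Tmem173 RNA in inflamed colon of the knockout, and by staining a loss of STING in myeloid cells. In 3 libraries, the untreated libraries numbered 3 in either genotype and replicate 5 of colitic Tmem173iΔmye, Xist was at 1230 to 1840 CPM, against at most 0.545 in the rest. The Y-linked genes Ddx3y, Eif2s3y, Kdm5d and Uty were at 0 counts in these 3 libraries and at 394 to 1824 counts in the others, the pattern of female and male tissue. Colitic Tmem173fl/fl was the group with no such library, and the labels do not give the sex of the animals. The results that change without these libraries are given both ways. Colon epithelium markers were high in all libraries, with a summed level of 6170 to 17400 CPM over 10 genes. Of 8 small intestine markers, which summed to 23.4 to 133 CPM, Defa24 and Defa30 were at 0 in all 12 libraries and Alpi was at 1.21 to 125 CPM. Alpi was lowest and Fabp6 highest, at 28.8 CPM, in colitic Tmem173iΔmye replicate 5, the library also highest in Ccl28 and Ccl20. With DSS in Tmem173fl/fl colon, Alpi and Sis were called higher and Fabp6 lower.

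The 250 bases before the transcription starts of Cxcl13, Cxcl12, Cxcr4, Ccl28 and Ccl20 are printed. The first 4 of these genes were called with DSS in Tmem173fl/fl colon, 3 higher and 1 lower, and Ccl20, which was not called, is shown as another epithelial ligand beside Ccl28. They are from RefSeq (GRCm38.p6) and run 5′ to 3′ on the strand of the gene. Promoters of 8 of the 10 member genes were matched. Ccr7 and Cxcr5 were not. Capitals mark matches, on both strands, to a broad kB motif (GGGNNNNNCC, the frame bound by NF-kappaB) or to a TATA box (TATAAA).
Cxcl13, chr5:95956689-95956938, plus strand: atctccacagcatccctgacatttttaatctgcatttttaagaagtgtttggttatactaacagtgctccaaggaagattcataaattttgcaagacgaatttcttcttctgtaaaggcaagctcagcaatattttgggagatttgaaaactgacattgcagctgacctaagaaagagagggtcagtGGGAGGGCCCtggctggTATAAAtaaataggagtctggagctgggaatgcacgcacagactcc
Cxcl12, chr6:117168285-117168534, plus strand: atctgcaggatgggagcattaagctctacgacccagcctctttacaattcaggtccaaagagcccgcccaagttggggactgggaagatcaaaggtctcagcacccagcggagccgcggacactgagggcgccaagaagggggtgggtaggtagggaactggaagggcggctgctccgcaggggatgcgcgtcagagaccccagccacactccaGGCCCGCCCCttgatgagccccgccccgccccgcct
Cxcr4, chr1:128592300-128592549, minus strand: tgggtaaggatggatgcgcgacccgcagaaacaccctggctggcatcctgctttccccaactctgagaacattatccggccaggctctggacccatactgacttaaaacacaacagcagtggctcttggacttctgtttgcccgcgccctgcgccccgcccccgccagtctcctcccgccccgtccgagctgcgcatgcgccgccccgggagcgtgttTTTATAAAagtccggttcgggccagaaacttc
Ccl28, chr13:119623569-119623818, plus strand: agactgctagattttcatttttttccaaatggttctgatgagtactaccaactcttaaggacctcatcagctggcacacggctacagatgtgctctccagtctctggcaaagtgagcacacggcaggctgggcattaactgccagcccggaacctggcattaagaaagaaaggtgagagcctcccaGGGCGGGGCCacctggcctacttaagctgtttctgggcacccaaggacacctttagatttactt
Ccl20, chr1:83116516-83116765, plus strand: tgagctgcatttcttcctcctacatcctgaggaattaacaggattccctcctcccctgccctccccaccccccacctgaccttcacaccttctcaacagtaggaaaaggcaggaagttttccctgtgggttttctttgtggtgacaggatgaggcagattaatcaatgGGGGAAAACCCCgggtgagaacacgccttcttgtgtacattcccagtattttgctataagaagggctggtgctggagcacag

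The Cxcl13 window held a broad kB match from 63 to 54 bases before the start, which reads as the motif on both strands, and a TATA box from 46 to 41 bases. Of 32851 mouse promoter windows of the same length, 45.8% hold the broad kB motif and 12.4% hold TATAAA. The Ccl20 window held overlapping broad kB matches in the run GGGGAAAACCCC, from 82 to 71 bases before the start. Ccl28 and Cxcl12 each held 1 broad kB match in a GC-rich run, and Cxcr4 held overlapping TATA matches, 1 on each strand, 32 to 25 bases before the start. None of the 5 windows held ACGTG, the core of the hypoxia response element, which 16.6% of all windows hold. The GC content was 42.0% for Cxcl13 and 64.4% for Cxcl12, beside a median of 52.4% over all windows. A match describes letters only.

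Per length, the order of the members changed with colitis. FPKM divides counts by gene length and depth and so allows levels of different genes to be set side by side. In untreated Tmem173fl/fl colon Ccl28 had the highest FPKM, with a mean of 35.5 (29.5 to 45.1 over 3 libraries), and its range did not overlap that of the next row. Ccl21a on the scaffold followed at 17.1 (4.39 to 23.9), then Cxcl13 at 11.1 (8.54 to 13.8) and Cxcl12 at 7.37 (5.82 to 9.03). Among these last 3 rows neighbours overlapped, whereas Cxcl12 did not overlap the next row, Cxcr4. The receptors were lower, with Cxcr4 at a mean FPKM of 3.99, Cxcr5 at 1.68 and Ccr7 at 1.46, and the ligands Ccl25 and Ccl20 were at 1.58 and 0.86.

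In colitic Tmem173fl/fl colon Cxcl13 was first, at a mean FPKM of 249 (150 to 338), apart from all other members. Ccl21a on the scaffold was at 39.4 (6.02 to 103) and Cxcl12 at 38.3 (28.8 to 47.0), and these rows overlapped. Ccl28 was sixth by mean FPKM, at 7.54 (6.55 to 8.14). In colitic Tmem173iΔmye colon Cxcl13 was also first by mean FPKM, at 72.7 (37.9 to 114), but Ccl28 was next at 34.3 (15.6 to 55.9) and overlapped it.

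**Figure D1:**
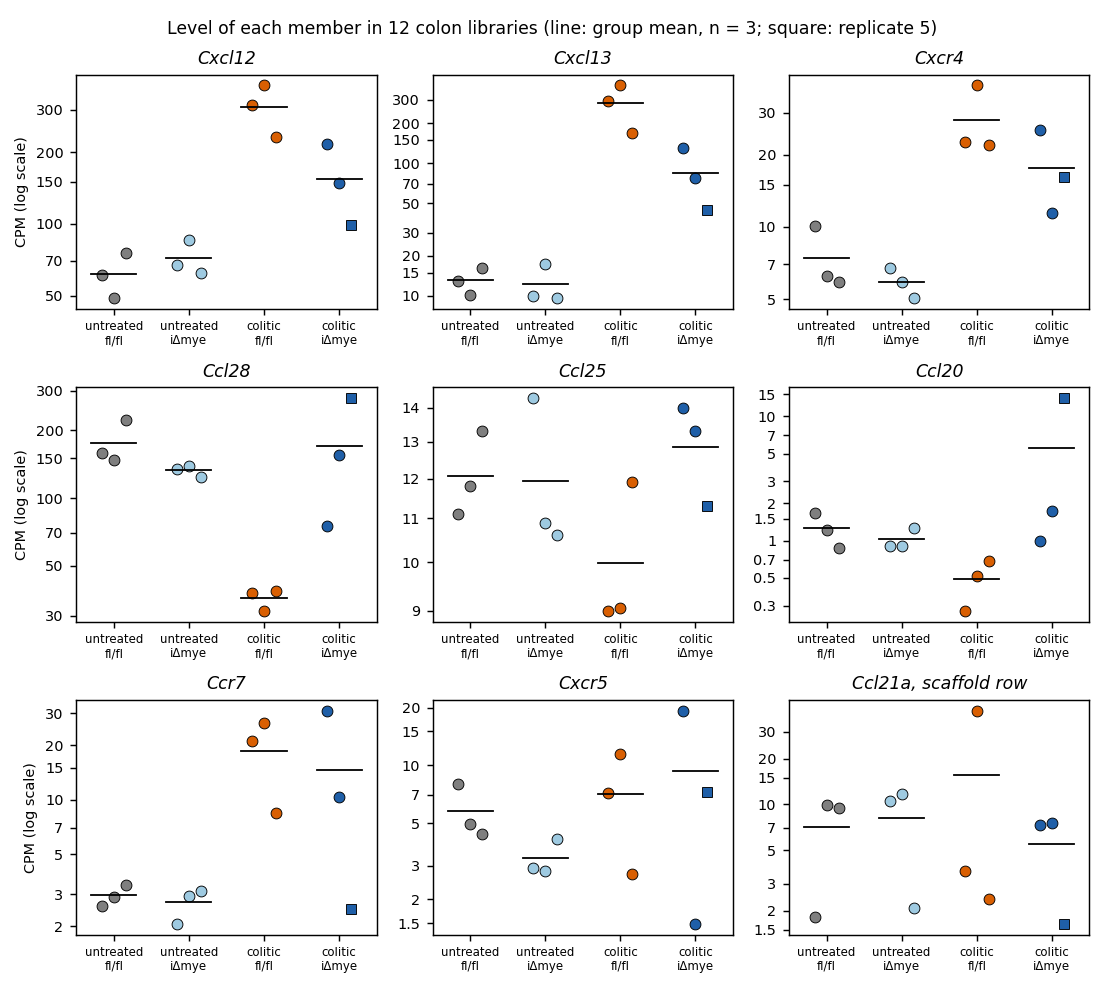
CPM on a log scale of 9 rows of the member genes in each of the 12 libraries, by group. Points are libraries, lines are group means (n = 3) and squares mark replicate 5 of colitic Tmem173iΔmye. For Cxcl13 the colitic Tmem173fl/fl points lie from 170 to 387, those of colitic Tmem173iΔmye from 44.6 to 131 and all untreated points from 9.62 to 17.4, while for Ccl28 only the colitic Tmem173fl/fl points are below 40 CPM.

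Calls needed an adjusted p under 0.05 over all genes tested and a change of at least 1 on the log2 scale. Across the members, DSS in Tmem173fl/fl colon gave 4 rows called higher (Cxcl13, Ccr7, Cxcl12, Cxcr4) and 1 lower (Ccl28) of 10 tested, beside 22.5% of all 24102 genes called (14.9% higher and 7.61% lower). The median log2 fold change was 1.05 over the 10 rows and 0.03 over all genes. Levels did not overlap between the groups for 6 of the 10 rows, the 5 called and Ccl20, beside 49.3% of all genes. DSS in Tmem173iΔmye colon gave 2 calls, Cxcl13 and Cxcr4, beside 2.08% of all genes (1.48% higher), with medians of 1.54 and 0.02. The member medians of both genotypes, 1.05 and 1.54, include Ccl21a of chromosome 4, which was near 0 counts. That of Tmem173iΔmye also includes Ccl20 and Cxcr5, whose values fell to 0.44 and 0.41 without 1 library each. Levels did not overlap for 4 rows, Cxcl13, Cxcl12, Cxcr4 and the near-absent Ccl21a of chromosome 4, beside 21.5% of all genes. Both calls were lost on leaving out any 1 of the untreated Tmem173iΔmye libraries, with log2 fold changes of 2.65 to 3.11 for Cxcl13 (edgeR adjusted p from 0.0575 to 0.0991) and 1.51 to 1.69 for Cxcr4 (0.185 to 0.224), and by limma. The Cxcr4 call was also lost without colitic Tmem173iΔmye replicate 1 (1.22, edgeR adjusted p = 0.094). The DSS comparisons of the 2 genotypes use separate libraries.

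The untreated genotypes gave 0 calls among the members and 0% among all 24102 genes by edgeR, and 0 among the members by DESeq2 and limma. At an unadjusted p under 0.05 there were 720 genes, 2.99% of those tested, including 2 members that were lower in Tmem173iΔmye without overlap, beside 7.35% of all genes without overlap and 3.68% lower without it. These were Cxcr5 (log2 fold change -0.79, SE 0.31, unadjusted p = 0.0233) and Ccl28 (-0.40, SE 0.17, unadjusted p = 0.0314), and both had an edgeR adjusted p of 1. Summed B cell markers also did not overlap between these groups.

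The colitic genotypes gave 1 call, Ccl28, beside 2.81% of all genes (0.822% higher and 1.99% lower). Of the 10 rows, 4 did not overlap between the genotypes, Ccl28 and Ccl20 higher and Cxcl13 and Cxcl12 lower in Tmem173iΔmye, beside 26.8% of all genes (12% higher and 14.8% lower). The median was -0.00 over the members and 0.02 over all genes. The interaction gave 1 call, Ccl28, beside 2.55% of all genes (0.934% higher). The values for Cxcl12 (-1.22, edgeR adjusted p = 0.11), Cxcl13 (-1.66, edgeR adjusted p = 0.12) and Ccl20 (3.79, edgeR adjusted p = 0.0937) did not pass the threshold. Without colitic Tmem173iΔmye replicate 1, these 3 passed it in both the colitic genotype comparison and the interaction.

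**Figure D2:**
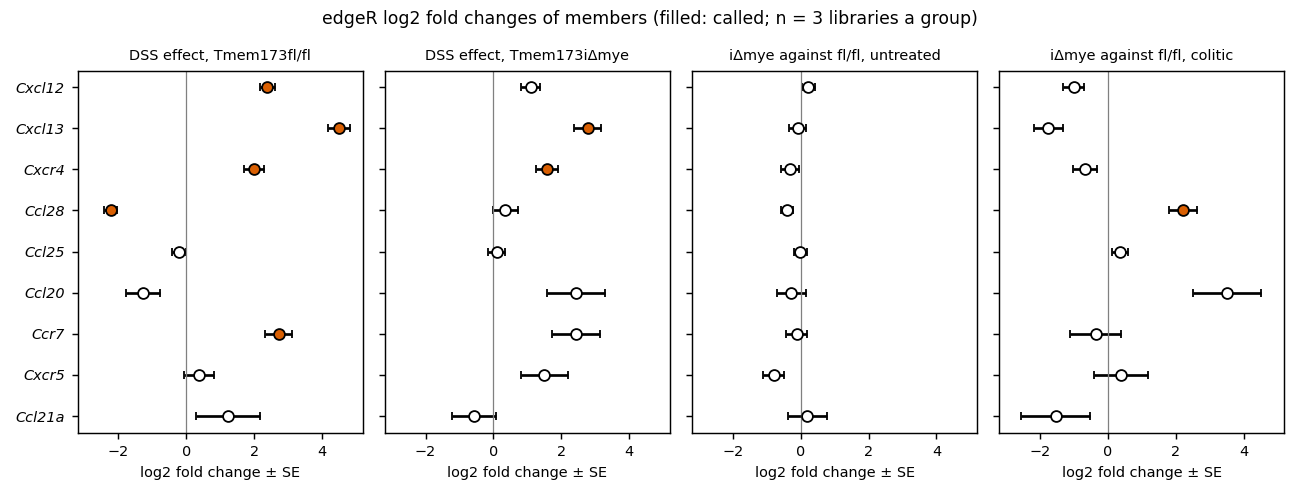
edgeR log2 fold changes with SE bars for 9 rows of the member genes in 4 pairwise comparisons of 3 against 3 libraries, with the Ccl21a row from the scaffold. Filled points were called at an adjusted p under 0.05 and a change of at least 1: 5 for DSS in Tmem173fl/fl, 2 for DSS in Tmem173iΔmye, 0 between untreated genotypes and 1, Ccl28, between colitic genotypes.

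Cxcl13, the B cell follicle chemokine (ENSMUSG00000023078, GRCm38 chromosome 5, 95956951 to 95961068), had the largest log2 fold change of the members tested with DSS in Tmem173fl/fl colon. It was at 13, 10.1 and 16.2 CPM in the untreated Tmem173fl/fl libraries 1, 2 and 3, and at 293, 387 and 170 CPM in the colitic ones. In Tmem173iΔmye colon it was at 9.95, 17.4 and 9.62 CPM without DSS and at 131, 77.5 and 44.6 CPM in replicates 1, 2 and 5 with DSS. Every colitic library was above every untreated one, and every colitic Tmem173iΔmye library was below every colitic Tmem173fl/fl library. The log2 fold change with DSS was 4.50 ± 0.32 (SE) in Tmem173fl/fl (edgeR adjusted p = 7.13e-06) and 2.77 ± 0.39 (SE) in Tmem173iΔmye colon (edgeR adjusted p = 0.0083). Between the colitic genotypes Cxcl13 was 3.37-fold lower in Tmem173iΔmye, with a log2 fold change of -1.75 ± 0.43. (SE) This did not pass the threshold (edgeR adjusted p = 0.066), and without colitic Tmem173iΔmye replicate 1, the highest of its group, it was -2.24 with an edgeR adjusted p of 0.0298.

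Cxcl12, made mainly by stromal and endothelial cells (ENSMUSG00000061353, chromosome 6, 117168535 to 117181367), was also higher in both colitic groups than in either untreated group. Among the colitic libraries it was lower where the genotype was Tmem173iΔmye, without passing the test. Its untreated levels were 61.0, 48.9 and 75.3 CPM in Tmem173fl/fl and 67.3, 85.9 and 62.1 CPM in Tmem173iΔmye libraries. With DSS they were 316, 381 and 232 CPM in Tmem173fl/fl and 217, 148 and 98.8 CPM in replicates 1, 2 and 5 of Tmem173iΔmye. None of the colitic groups overlapped the untreated group of its genotype, and the 2 colitic groups did not overlap each other. The DSS log2 fold change was 2.39 ± 0.23 (SE) in Tmem173fl/fl (edgeR adjusted p = 3.98e-05). It was 1.10 ± 0.28 (SE) in Tmem173iΔmye colon, which did not pass the threshold (edgeR adjusted p = 0.0814). Without replicate 5 of the colitic group this value was 1.38 with an edgeR adjusted p of 0.00457, and without replicate 1 it was 0.78 with an edgeR adjusted p of 0.184. The colitic genotypes differed by -1.01 ± 0.32 (SE, edgeR adjusted p = 0.123).

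The balance of these stromal ligands also differed between groups. The ratio of Cxcl13 to Cxcl12 FPKM was 1.47 to 1.53 in untreated Tmem173fl/fl and 1.05 to 1.44 in untreated Tmem173iΔmye libraries. It was 5.22 to 7.21 in colitic Tmem173fl/fl and 3.21 to 4.29 in colitic Tmem173iΔmye libraries. The groups did not overlap in any of the 4 pairwise comparisons, and the exact permutation test, two-sided, gave p = 0.1 in each, which is the smallest that 3 against 3 libraries can give.

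Cxcr4, the CXCL12 receptor of leukocytes (ENSMUSG00000045382, chromosome 1, 128588199 to 128592293), rose in both genotypes. It was at 10.1, 6.23 and 5.89 CPM in untreated and 22.6, 39.0 and 22.0 CPM in colitic Tmem173fl/fl libraries. In Tmem173iΔmye it was at 6.74, 5.87 and 5.05 CPM without DSS and at 25.4, 11.4 and 16.1 CPM with it. The groups did not overlap within a genotype, but the colitic genotypes overlapped. The DSS log2 fold change was 1.99 ± 0.29 (SE) in Tmem173fl/fl (edgeR adjusted p = 0.000538) and 1.58 ± 0.33 (SE) in Tmem173iΔmye colon (edgeR adjusted p = 0.0388). The difference between these DSS effects was -0.34, with a 95% interval of -1.23 to 0.56 (by a normal quantile, which is narrow for so few libraries). The Tmem173iΔmye call was lost without some single libraries and by limma, as given above. With DSS, neutrophil markers were called higher for 8 of 8 genes in Tmem173fl/fl and 5 of 8 in Tmem173iΔmye colon. Macrophage markers were called higher for 7 of 8 and 1 of 8, beside 14.9% and 1.48% of all genes. The part of these cells in the level of Cxcr4 was not tested.

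Ccl28, the colon epithelial ligand of CCR10 and CCR3 (ENSMUSG00000074715, chromosome 13, 119623819 to 119654359), moved the other way. It was at 159, 147 and 223 CPM in untreated and at 38.0, 31.5 and 38.8 CPM in colitic Tmem173fl/fl libraries. In Tmem173iΔmye colon it was at 135, 139 and 124 CPM without DSS and at 75.5, 155 and 278 CPM in replicates 1, 2 and 5 with DSS. The colitic Tmem173fl/fl libraries were the 3 lowest of all 12, and colitic Tmem173iΔmye libraries lay below, within and above the untreated range. Ccl28 fell 4.67-fold with DSS in Tmem173fl/fl colon, a log2 fold change of -2.22 ± 0.19 (SE, edgeR adjusted p = 1.97e-05). In Tmem173iΔmye the value was 0.35 ± 0.37 (SE, edgeR adjusted p = 0.706), with a 95% interval of -0.38 to 1.08.

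Between the colitic genotypes Ccl28 was 4.66-fold higher in Tmem173iΔmye, a log2 fold change of 2.22 ± 0.41 (SE, edgeR adjusted p = 0.0311). The difference between the DSS effects of the genotypes, the interaction term, was 2.64 ± 0.48 (SE, edgeR adjusted p = 0.0126). This term shares the colitic Tmem173fl/fl libraries with the DSS comparison in Tmem173fl/fl and with the comparison of the colitic genotypes. The genotype call was lost on leaving out any 1 of the colitic Tmem173fl/fl libraries (edgeR adjusted p = 0.133, 0.1 and 0.0796 without replicates 1, 2 and 3) or without colitic Tmem173iΔmye replicate 2 (0.0927), where the log2 fold change was from 2.14 to 2.29, and by limma. Without replicate 5, the highest Ccl28 library, it was 1.65 (edgeR adjusted p = 0.0317). Without the 3 libraries with high Xist, the interaction was 1.8 and no longer passed the threshold (edgeR adjusted p = 0.0575).

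In bulk tissue, fewer cells of a type and less RNA per cell cannot be told apart. Fibroblast markers rose for 8 of 8 genes with DSS in Tmem173fl/fl colon, as did 6 of 6 blood endothelium markers and 5 of 5 lymphatic endothelium markers. Over all genes 14.9% were called higher. The summed fibroblast level was 1170 to 1490 CPM in the untreated libraries, 8210 to 10400 in colitic Tmem173fl/fl and 2360 to 3470 in colitic Tmem173iΔmye. Of its 8 genes, 6 were called lower in colitic Tmem173iΔmye against colitic Tmem173fl/fl, beside 1.99% of all genes. Examples were Dcn (log2 fold change -1.78) and Col3a1 (-1.73). Blood endothelium markers summed to 100 to 125 CPM untreated, 447 to 616 in colitic Tmem173fl/fl and 164 to 328 in colitic Tmem173iΔmye libraries. No fibroblast or endothelium marker was at 0 in all libraries of a group. Colon epithelium markers fell for 8 of 10 genes with DSS in Tmem173fl/fl, beside 7.61% of all genes called lower. Slc26a3 fell by 2.73 on the log2 scale, and 1 of the 10 markers, Car1, rose. Their sum was 14300 to 17400 CPM untreated, 6170 to 10000 in colitic Tmem173fl/fl and 11800 to 14600 in colitic Tmem173iΔmye. Colitic Tmem173fl/fl libraries thus lay apart from all others in these sums, as they did in Cxcl12, Cxcl13 and Ccl28. Within the colitic groups the order of libraries was shared in part. Ccl28 followed the order of the epithelium sums in colitic Tmem173fl/fl, whereas in colitic Tmem173iΔmye it was highest, at 278 CPM, in the library with the lowest epithelium sum. Cxcl12 and Cxcl13 followed the order of the blood endothelium sums in colitic Tmem173iΔmye but not in colitic Tmem173fl/fl, where the 2 highest endothelium sums were 616 and 614 CPM. They followed the order of the fibroblast sums in neither colitic group. In both colitic groups their order was that of the summed T cell, plasma cell, macrophage, dendritic cell, lymphatic endothelium and adipocyte markers. The part of these cells in the chemokine differences was not tested.

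**Figure D3:**
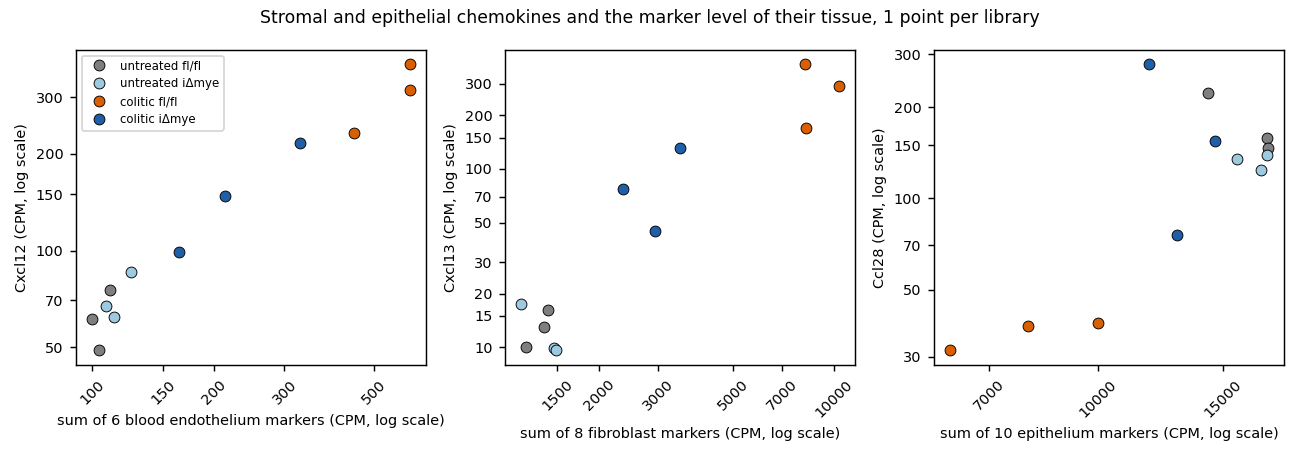
Level of Cxcl12, Cxcl13 and Ccl28 (CPM, log scale) against the summed CPM (log scale) of blood endothelium, fibroblast and colon epithelium markers, 1 point per library, coloured by group. The 3 colitic Tmem173fl/fl points lie apart in each panel, with 447 to 616 CPM of endothelium markers and 232 to 381 CPM of Cxcl12, and with 6170 to 10000 CPM of epithelium markers and 31.5 to 38.8 CPM of Ccl28.

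Ccl25, the thymic and small intestinal ligand of CCR9 (ENSMUSG00000023235, chromosome 8, 4325210 to 4360020), was almost level. It was at 11.1, 11.8 and 13.3 CPM in untreated and 8.99, 9.04 and 11.9 CPM in colitic Tmem173fl/fl libraries. In Tmem173iΔmye it was at 14.3, 10.9 and 10.6 CPM without DSS and at 14.0, 13.3 and 11.3 CPM with it. All groups overlapped in the comparisons made. The DSS log2 fold change was -0.21 in Tmem173fl/fl, with a 95% interval of -0.60 to 0.18, and 0.10 in Tmem173iΔmye, with an interval of -0.39 to 0.60. Ccl28 relative to Ccl25, as a ratio of FPKM, was 19.1 to 25.8 in untreated and 5.01 to 6.5 in colitic Tmem173fl/fl libraries, and 14.5 to 19.6 and 8.30 to 37.8 in those of Tmem173iΔmye.

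Ccl20, the ligand of CCR6 (ENSMUSG00000026166, chromosome 1, 83116766 to 83119167), was low and in 1 library high. It held 5 to 28 counts in 11 libraries and 231 counts in colitic Tmem173iΔmye replicate 5. In CPM it was at 1.67, 1.22 and 0.877 in untreated and 0.271, 0.521 and 0.681 in colitic Tmem173fl/fl, a log2 fold change of -1.28 that did not pass the threshold (edgeR adjusted p = 0.0718). In Tmem173iΔmye it was at 0.910, 0.898 and 1.26 CPM without DSS and at 0.998, 1.74 and 14.0 CPM with DSS. All 3 colitic Tmem173iΔmye libraries were above the colitic Tmem173fl/fl ones, with a log2 fold change of 3.5 ± 1 (SE) (edgeR adjusted p = 0.0977). Without replicate 5 this was 1.47 (edgeR adjusted p = 0.205), and the DSS value in Tmem173iΔmye went from 2.44 to 0.44.

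Ccr7, the receptor of CCL19 and CCL21 on naive T cells and migrating dendritic cells (ENSMUSG00000037944, chromosome 11, 99144196 to 99155077), rose in colitic Tmem173fl/fl colon. It was at 2.58, 2.91 and 3.38 CPM in untreated and at 21.0, 26.4 and 8.44 CPM in colitic Tmem173fl/fl libraries, a log2 fold change of 2.72 ± 0.39 (SE, edgeR adjusted p = 0.000453). In Tmem173iΔmye it was at 2.06, 2.93 and 3.13 CPM without DSS and at 30.9, 10.3 and 2.49 CPM in replicates 1, 2 and 5 with DSS. Replicate 1 was the highest and replicate 5 within the untreated range, a 12.4-fold spread inside 1 group. The DSS value in Tmem173iΔmye was 2.42 ± 0.71 (SE, edgeR adjusted p = 0.123), and ranged from 1.24 without colitic replicate 1 (edgeR adjusted p = 0.398) to 2.96 without colitic replicate 5 (edgeR adjusted p = 0.00199).

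Cxcr5, the CXCL13 receptor of B cells and follicular helper T cells (ENSMUSG00000047880, chromosome 9, 44511787 to 44561877), did not follow its ligand. It was at 7.95, 4.94 and 4.38 CPM in untreated and 7.15, 11.4 and 2.72 CPM in colitic Tmem173fl/fl libraries. In Tmem173iΔmye it was at 2.91, 2.81 and 4.15 CPM without DSS and at 19.2, 1.49 and 7.28 CPM with DSS. The colitic groups each spanned the untreated values. The DSS log2 fold change was 0.38 in Tmem173fl/fl (95% interval -0.49 to 1.26, edgeR adjusted p = 0.548) and 1.5 in Tmem173iΔmye (0.15 to 2.84, edgeR adjusted p = 0.328). The second interval leaves out no change although the unadjusted edgeR p was 0.053, because the normal quantile makes it too narrow. The Tmem173iΔmye value rested largely on replicate 1, without which it was 0.41 (edgeR adjusted p = 0.824). The ratio of Cxcl13 to Cxcr5 FPKM differed by 4.26 on the log2 scale between colitic and untreated Tmem173fl/fl libraries, which did not overlap (exact two-sided permutation p = 0.1, the smallest possible). In Tmem173iΔmye the ratio was 6.72 to 17.9 untreated and 19.7, 150 and 17.7 in colitic replicates 1, 2 and 5, which overlapped, with a log2 difference of 1.82 (exact two-sided permutation p = 0.2). The colitic genotypes differed in this ratio by -1.78 on the log2 scale (exact two-sided permutation p = 0.3).

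Within the colitic groups, levels of B cell genes followed the same order of libraries as Cxcr5. The 10 B cell markers, none at 0 in any group, summed to 173, 92.3 and 110 CPM in untreated Tmem173fl/fl and 80.5, 66.5 and 69.0 CPM in untreated Tmem173iΔmye libraries. With DSS they summed to 147, 254 and 47.6 CPM in Tmem173fl/fl and to 429, 38.3 and 158 CPM in replicates 1, 2 and 5 of Tmem173iΔmye. Within each colitic group the library with the most B cell marker RNA also had the most Cxcr5, and the library with the least had the least. Of the 10 markers, 0 were called higher and 1, Cr2, lower with DSS in Tmem173fl/fl (edgeR), beside 14.9% and 7.61% of all genes. Ccr6, the CCL20 receptor, was at 3.58, 6.15 and 1.29 CPM and at 13.2, 2.49 and 4.25 CPM in the colitic Tmem173fl/fl and Tmem173iΔmye libraries, with the same library highest in each. Ccr7 was also highest in those libraries. T cell markers were highest there too, at 234 CPM in colitic Tmem173fl/fl replicate 2 and 250 CPM in colitic Tmem173iΔmye replicate 1. Over all 3 libraries of each colitic group, summed T cell, plasma cell, macrophage, dendritic cell, lymphatic endothelium and adipocyte markers followed the same order as Ccr7, and B cell markers did so in Tmem173fl/fl but not in Tmem173iΔmye. The 8 dendritic cell markers, none at 0 in any group, summed to 163, 165 and 93.7 CPM in colitic Tmem173fl/fl and to 189, 82.5 and 44.7 CPM in replicates 1, 2 and 5 of colitic Tmem173iΔmye. With DSS in Tmem173fl/fl colon 3 of these 8 were called higher (Flt3, Fscn1, Zbtb46) and 1 lower (Xcr1), beside the same shares of all genes. Fscn1 alone was at 115, 111 and 57.7 CPM of the colitic Tmem173fl/fl sums. The part of these cells in the levels of Cxcr5 and Ccr7 was not tested.

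**Figure D4:**
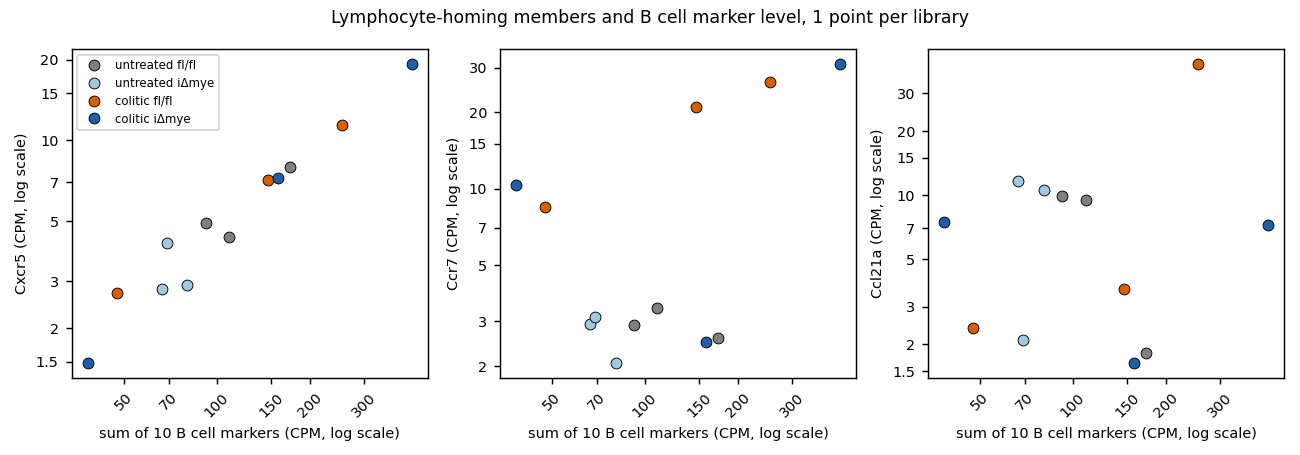
Level of Cxcr5, Ccr7 and Ccl21a on the scaffold (CPM, log scale) against the summed CPM (log scale) of 10 B cell markers, 1 point per library, coloured by group. Cxcr5 goes from 1.49 CPM in the library with 38.3 CPM of B cell markers to 19.2 CPM in the one with 429 CPM, whereas Ccl21a is highest, at 41.1 CPM, in a library with 254 CPM.

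Ccl19 and Ccl21a, the CCR7 ligands, were the least certain members, because their reads can be shared with near-identical copies. The coding sequences of Ccl21a and its copy Ccl21b (GENCODE vM21, GRCm38, 402 bases) were 99.5% identical. They differ at T84A and C194T, counted from 1 at the first coding base, with the Ccl21a base first. The stretches around these positions are shown because they hold the only coding differences between this pair, and capitals mark the differing base. The rows of Ccl21a were not compared with each other or with Ccl21c. Both Ccl21b rows held 0 counts in all 12 libraries.
Ccl21a, coding bases 60 to 108: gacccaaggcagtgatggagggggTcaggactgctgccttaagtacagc
Ccl21b, coding bases 60 to 108: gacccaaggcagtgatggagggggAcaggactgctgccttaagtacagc
Ccl21a, coding bases 170 to 218: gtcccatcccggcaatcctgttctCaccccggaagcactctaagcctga
Ccl21b, coding bases 170 to 218: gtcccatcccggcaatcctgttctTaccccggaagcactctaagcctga

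Of the 50-base windows of the Ccl21a transcript, 30.8% were also found in the Ccl21b transcript, and 39.7% of those of Ccl19 were found in its pseudogenes Ccl19-ps1 and Ccl19-ps3. How reads that fit several places were counted is not given in the sources used here.

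The Ccl21a row on the scaffold (ENSMUSG00000095320, 121048 to 121713) was at 1.82, 9.88 and 9.46 CPM in untreated and 3.63, 41.1 and 2.38 CPM in colitic Tmem173fl/fl libraries. In Tmem173iΔmye it was at 10.6, 11.7 and 2.10 CPM without DSS and at 7.27, 7.53 and 1.64 CPM with it. The groups overlapped in all 4 pairwise comparisons, and within-group spreads were 4.59-fold to 17.3-fold. The DSS log2 fold change in Tmem173fl/fl, 1.23 ± 0.95 (SE), turned to -1.18 without replicate 2 of the colitic group. The Ccl21a row on chromosome 4 (ENSMUSG00000094686, 42772860 to 42773993) held 0 to 8 counts a library and a total of 3, 1, 7 and 12 counts over the untreated groups (Tmem173fl/fl, then Tmem173iΔmye) and the colitic groups (in the same order). As most libraries were at or under a floor of 3 counts, no fold is given.

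Ccl19 on chromosome 4 (ENSMUSG00000071005, 42754525 to 42756577) had counts in 2 of 12 libraries, 33 in colitic Tmem173fl/fl replicate 2 and 95 in colitic Tmem173iΔmye replicate 1. It held 0 counts in the remaining 10, which allows up to 3 counts in each by counting error. These are the libraries with the most B cell marker RNA of their groups, and those highest in Ccr7. Ccl19 was not tested after the filter.

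Other chemokine receptors, typical receptors of these ligands and scavenger or atypical receptors, were a list of 8 genes. With DSS in Tmem173fl/fl colon 3 of them were called higher and 0 lower, beside 14.9% and 7.61% of all genes. The median log2 fold change was 0.83, beside 0.03 over all genes. The 3 called higher were Ccr3, Ackr3 (1.75) and Ackr2 (1.82). Ccr3, an eosinophil receptor that binds CCL28, had 2, 3 and 2 counts untreated and 38, 30 and 24 counts colitic. Ackr3 is a sink for CXCL12, and Ackr2 a scavenger of inflammatory CC chemokines rather than of the ligands described here. No fold is given for Ccr3, as its untreated libraries were at or under 3 counts. Ackr3 was at 31.6, 32.2 and 40.8 CPM in colitic Tmem173fl/fl and at 17.7, 13.1 and 14.8 CPM in colitic Tmem173iΔmye libraries, without overlap. It was 1 of 8 called between the colitic genotypes, beside 2.81% of all genes, with a log2 fold change of -1.21 ± 0.21 (SE, edgeR adjusted p = 0.0284). Ccr10, the main receptor of CCL28, had a DSS log2 fold change of -0.58 in Tmem173fl/fl (edgeR adjusted p = 0.251), and Ccr9 one of 0.66 (edgeR adjusted p = 0.217).

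Other homeostatic chemokines and receptors filled 15 rows, of which 10 were tested. DSS in Tmem173fl/fl colon raised 6 and lowered 0 of them, beside 14.9% called higher and 7.61% lower over all genes. The 6 were Ccl17, Ccl22 and their receptor Ccr4, Cxcl14, Cxcl16 and Ccl21c. Of these, Ccl17 held at most 9 counts and Ccl21c at most 11 in any library of this comparison. Cxcl14, which is made by epithelium and stroma, was at 57.5, 60.6 and 109 CPM in colitic Tmem173fl/fl and 15.1, 9.58 and 11.5 CPM in colitic Tmem173iΔmye libraries. It was the call of this list between the colitic genotypes (-2.65, SE 0.31, edgeR adjusted p = 0.0099) and in the interaction (-2.61, SE 0.39, edgeR adjusted p = 0.00617). Over all genes 2.81% and 2.55% were called there. With DSS in Tmem173iΔmye colon 1 of the 10, Ccl22, was called higher, beside 1.48% of all genes.

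Signals that organise lymphoid tissue made a list of 14 genes. With DSS in Tmem173fl/fl colon 7 were called higher and 1 lower, beside 14.9% and 7.61% of all genes. The median log2 fold change was 0.96, beside 0.03 over all genes. Tnfsf11, the cytokine RANKL, rose by 3.61, Vcam1, an adhesion molecule of stroma and endothelium, by 3.06, and Madcam1, the gut vascular addressin, by 2.78. The receptor of RANKL, Tnfrsf11a, fell by 1.5 on the log2 scale. In Tmem173iΔmye colon 1 of 14, Vcam1, was called with DSS (1.79, edgeR adjusted p = 0.0349), beside 2.08% of all genes. Between the colitic genotypes Tnfsf11 was lower in Tmem173iΔmye (-2.47, edgeR adjusted p = 0.0329) and Tnfrsf11a higher (1.03, edgeR adjusted p = 0.0371). The lymphotoxin genes Lta and Ltb had DSS log2 fold changes of -0.44 and 0.54 in Tmem173fl/fl and were not called.

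The genes whose levels were most like those of each member over the 12 libraries were found by Pearson's r of log2(CPM + 1) among 12892 genes with a mean FPKM of at least 1. These values describe libraries that share group, depth and tissue makeup, and the groups alone can give a high r. Cxcl13 was most like Entpd1 (0.996), S1pr1 (0.990) and Vcam1 (0.989), and Cxcl12 most like Maml2 (0.993), Vcam1 (0.991) and Pecam1 (0.989). Ccl28 was most like Vamp3 (0.986), Ak3 (0.981) and Mllt3 (0.978). The genes most like Cxcr5 included the B cell genes Cd79a (0.972) and Spib (0.971), and over the 6 colitic libraries alone these r were 0.992 and 0.986. Ccr7 was most like Cytip (0.978), Reg3a (0.977) and Csf1r (0.969), and Cxcr4 most like Fendrr (0.977), Tox2 (0.975) and Ggta1 (0.975). The leading r was lower for Ccl20 (Gnptg, 0.921), whose level is set apart by 1 library, and for Ccl25 (Trip11, 0.841) and Ccl21a on the scaffold (Trp53inp1, 0.835).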

How the data were processed

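RNA of colon was measured in 12 libraries of 4 groups. Titles of the samples gave the groups and the replicate numbers. The authors deposited 1 table with raw counts and FPKM per gene and library. Per the submitters' processing notes it was made with CASAVA 1.8, fastp, HISAT2 2.0.5 and featureCounts 1.5.0-p3 on GRCm38 (mm10). Libraries were made with a NEBNext Ultra kit, and the use of strand in counting is not stated. The deposited FPKM were the counts per gene length and library depth. The deposited group means, fold changes and p-values were not used.

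Counts were tested in R 4.3.3 with edgeR 4.0.16 (glmQLFit, glmQLFTest, TMM) over 24102 genes (FPKM of 0.1 reached in 3 or more libraries), with only the groups compared in a fit and all 12 libraries for the interaction. Calls needed a change of at least 1 on the log2 scale, either way, and an adjusted p (Benjamini-Hochberg) under 0.05. The SE is the log2 fold change divided by the square root of F. The 95% intervals use this SE with a normal quantile. With so few libraries they are narrower than the F test implies. CPM were scaled by TMM. The test was checked on simulated counts, and the outcome of that check is not reported here. DESeq2 1.42.0, limma 3.58.1 on log2(FPKM + 0.1) and log2(FPKM + 1), other filters, scalings and thresholds, a fit with the replicate number as a block, and fits without 1 library each, were alternatives. Leaving out the libraries with high Xist was added after seeing the data. Members and lists were chosen with earlier results of these data known. Besides the members, up to 3 called genes of a list and the 3 genes most like each member were named. For Cxcr5, 1 of these is not reported here. Genes named outside this rule, such as Ccr6, Ccr9, Ccr10, Lta and Ltb, the remaining calls among other homeostatic chemokines and the call of Tnfrsf11a, were chosen after their values were seen. Promoters were read from RefSeq (GRCm38.p6) and transcripts from GENCODE vM21.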

Additional observations from a re-analysis of the deposited data

Results flagged for a closer look

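The effect of DSS on Ccl28 differed between the genotypes: it fell by 2.22 on the log2 scale in Tmem173fl/fl colon and had a value of 0.35 in Tmem173iΔmye colon. The interaction term that tests this difference was 2.64 ± 0.48 (SE, edgeR adjusted p = 0.0126). Without the 3 libraries with high Xist the interaction was 1.8 and not called (edgeR adjusted p = 0.0575), and the value in Tmem173iΔmye colon was -0.23. Without colitic Tmem173iΔmye replicate 5 alone that value was -0.18.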

How the results depend on the processing

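The 5 calls for DSS in Tmem173fl/fl colon were the same genes in all alternatives run, with Ccl19 or Ccl20 added in 2 of them, and untreated genotypes gave 0 calls in all. Ccl19 had counts in only 1 Tmem173fl/fl library, 33 in colitic replicate 2. For DSS in Tmem173iΔmye, 2 calls became 6 by unadjusted p, 6 with no filter, 5 by DESeq2, 0 by limma at either pseudocount and 4 in one fit of 12 libraries, and 0 to 4 with 1 library left out, 0 on leaving out any 1 untreated Tmem173iΔmye library. For the colitic genotypes, 1 call became 4 by unadjusted p, 3 with no filter, 3 by DESeq2, 0 by limma at either pseudocount and 4 in one fit, and 0 to 4 with 1 library left out. For the interaction, 1 call became 4 by unadjusted p, 4 with no filter, 4 by DESeq2, 1 to 4 with 1 library left out and 0 without the libraries with high Xist. The share of all genes called is not given for these alternatives, so their counts cannot be set against it. The cause of these changes was not tested.

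With the replicate number as a block, the calls were 4 for DSS in Tmem173iΔmye and 2 for the colitic genotypes, Ccl28 under DSS in Tmem173iΔmye was -0.34, Cxcr5 between colitic genotypes -0.63 and Ccr7 in the interaction 0.17. Libraries with the same number deviated with r from -0.197 to 0.237. With so few libraries in a group, these r cannot decide whether the numbers paired the samples. The untreated libraries numbered 3 had high Xist in both genotypes.

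Signs turned for values that were not called. Without the libraries with high Xist, Ccl28 under DSS in Tmem173iΔmye was -0.23, Cxcl13 and Ccl25 between untreated genotypes 0.25 and 0.14, and Ccr7 between colitic genotypes 0.14 and in the interaction 0.25. Ccl25 between untreated genotypes was 0.02 under library totals, and Cxcr5 between colitic genotypes -0.02 by limma at 0.1. With 1 library left out, Ccl21a on the scaffold ran from -1.18 to 1.71 (DSS, Tmem173fl/fl), -0.25 to 0.66 (untreated genotypes), -2.03 to 0.86 (colitic genotypes) and -2.26 to 0.59 (interaction). Ccr7 ran from -0.24 to 0.04, -1.58 to 0.14 and -1.42 to 0.26 in the last 3 of these, Cxcr5 from -0.16 to 0.74 (DSS, Tmem173fl/fl) and -0.70 to 0.92 (colitic genotypes), Ccl28 from -0.18 to 0.71 (DSS, Tmem173iΔmye), and Cxcl13 and Ccl25 from -0.41 to 0.10 and -0.16 to 0.07 (untreated genotypes). Scaling by library totals moved the median of all genes to 0.165 for DSS in Tmem173fl/fl and -0.126 in the interaction. Depth limits low rows such as Ccl20, with 5 to 28 counts in 11 libraries.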
